A study of Mus musculus with 8 samples.

Results

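The genes described here are 8 mucins, Muc1, Muc2, Muc4, Muc5b, Muc6, Muc13, Muc15 and Muc20, taken by gene symbol from the 38115 genes counted in each of 8 mouse prostate tumors. Muc4 was selected on its higher counts in metastatic tumors, and the other 7 were set beside it as members of the same family. The comparison of metastatic with primary tumors is therefore given for all 8 as a description, with no test. The comparison of castrate resistant with androgen sensitive tumors played no part in the choice and was tested.

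Mucins are large glycoproteins whose cores carry long stretches rich in serine and threonine, to which chains of sugars are attached through oxygen. Secreted mucins join end to end through cysteine-rich domains and form the gel of mucus, whereas membrane mucins stay anchored in the apical surface of epithelial cells, where their extracellular part forms a barrier and their short tail lies in the cytoplasm. In the prostate, MUC1 has been studied as a surface antigen of carcinoma cells. Of the 8 genes, Muc5b, Muc6 and Muc2 encode secreted gel-forming mucins, and Muc1, Muc4, Muc13, Muc15 and Muc20 encode membrane mucins.

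RNA was sequenced from 4 primary and 4 metastatic tumors of Myc-CaP, a mouse prostate cancer cell line. In each type 2 tumors were androgen sensitive (AS) and 2 were castrate resistant (CR). Cells of the Myc-CaP AS or CR line were placed in the anterior prostate of male FVB mice, which were intact or had been castrated by surgery beforehand. The host of each tumor, the age of the mice and the site of each metastasis are not stated in the sources used here. The primary tumors and metastases are called AS1, AS2, CR1 and CR2 within each type, and these names carry no pairing. Each phenotype is 1 cell line, so phenotype and line cannot be told apart. The labels call the metastases matched, without naming the primary tumor of each, so tumors of a phenotype may share mice. The 4 tumors of a phenotype were fitted as separate samples, and p-values between phenotypes are then too small if they share mice. Nothing states that tumors of 1 type came from separate mice, and p-values measure the spread between these samples.

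Total counts ranged from 20905806 in metastatic CR2 to 91886163 in metastatic AS2. Metastatic AS2 and CR2 also stood apart in the number of genes with a count, 27673 and 27438, against 22232 to 23989 in the other 6 tumors. The differences of the mucins are given with and without them. Of the prostate epithelial markers, Hoxb13 had 6.24 to 47.5 CPM (counts scaled to a common library total) and Krt8 had 36.4 to 710.4 CPM. Tmprss2, Krt18, Epcam and Cdh1, which also mark this epithelium, were under 1 CPM in every tumor. These are bulk samples, in which fewer cells of a type and less RNA per cell cannot be told apart.

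Mucin repeats bear on these counts, because the study's methods keep only reads with a unique match in the genome, allowing 2 mismatches. The submitters' processing notes name another mapping tool. The windows printed here have the length of 1 read and show such repeats for the secreted and the membrane mucin on which the values turn. For each gene the window with the most copies in its own transcript was taken, which has 5 other copies in Muc5b and 4 in Muc4, together with its nearest copy that does not overlap it. Both were read 5′ to 3′ from the sequence of the annotated transcript and lie wholly in coding sequence. Their coordinates are on the plus strand of the mouse genome GRCm38. The Muc5b window in exon 31 recurs with 0 differences 888 bases further along the transcript, and the Muc4 window in exon 3 has a counterpart in exon 2 with 1 difference, marked by the capital.
Muc5b chr7:141858017-141858117: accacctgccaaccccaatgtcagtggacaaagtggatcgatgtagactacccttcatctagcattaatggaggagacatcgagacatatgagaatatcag
Muc5b chr7:141858905-141859005: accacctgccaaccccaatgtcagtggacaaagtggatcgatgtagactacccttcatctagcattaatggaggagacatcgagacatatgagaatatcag
Muc4 chr16:32753720-32753820: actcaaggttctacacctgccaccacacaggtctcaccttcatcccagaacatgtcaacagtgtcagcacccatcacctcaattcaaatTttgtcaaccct
Muc4 chr16:32752839-32752939: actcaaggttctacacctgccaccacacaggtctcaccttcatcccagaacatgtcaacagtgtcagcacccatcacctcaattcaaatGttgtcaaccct

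Every window of that length along the longest annotated transcript of each mucin was matched in this way. In Muc5b, 24.4% of windows matched a second place in the same transcript, all of them in exon 31, an exon of 8019 bases. In Muc6 the share was 17.7%, again all in exon 31, in Muc13 it was 15.3%, all in exon 3, and in Muc4 it was 9.30%, spread over 3 exons with the most in exon 2. Only 0.187% of Muc1 windows were repeated, and 0 windows of Muc2, Muc15 and Muc20. For Muc2 the longest annotated transcript has 2926 bases, against 7127 bases of exon in the gene. The remaining exon sequence of Muc2 was not matched, so repeats there are not known. Under the stated rule a read that lies wholly in a repeated window is not counted, so the counts of Muc5b, Muc6, Muc13 and Muc4 may leave out part of their own transcripts, by the same sequence in every tumor. The windows stand for single reads, whereas the reads were paired, and the part of the mate in placing a read was not tested.

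**Figure D1:**
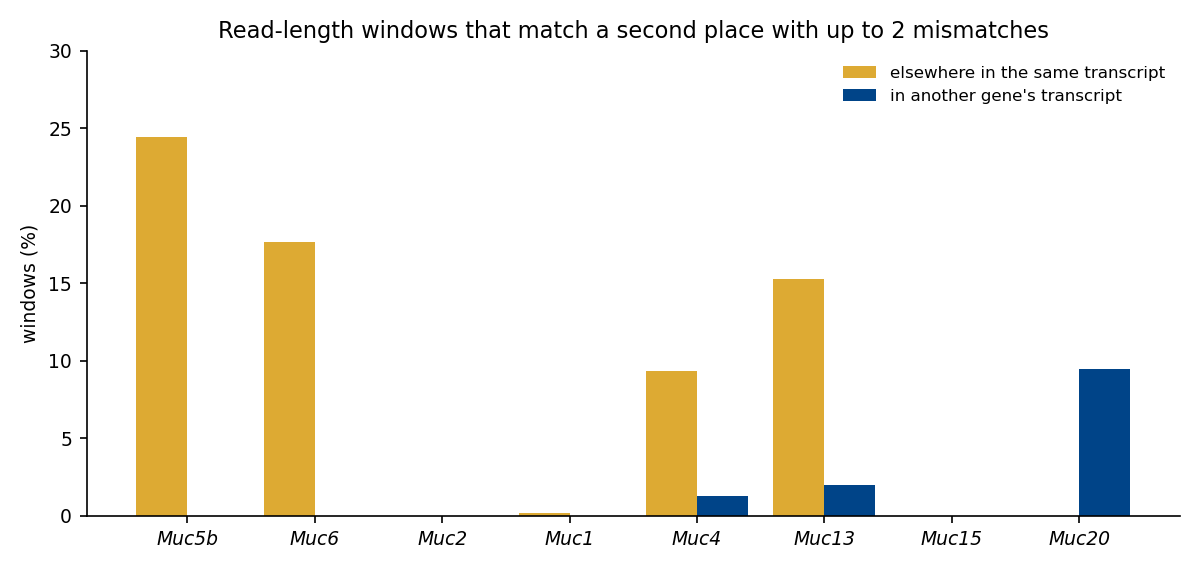
Share of read-length windows (%) along the longest transcript of each of the 8 mucins (x axis) that match with up to 2 mismatches, at a second place in the same transcript (yellow bars) or in the transcript of another gene (blue bars). The other genes matched overlap the mucin on the opposite strand, so a blue match need not be a second place in the genome. Muc5b has the highest share within its own transcript, 24.4%, and Muc20 the highest share matching another gene, 9.49%.

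Muc4 and Muc20 are neighbours on chromosome 16 that face each other. Muc4 lies on the plus strand from 32735886 to 32782391 and Muc20 on the minus strand from 32777419 to 32797435, and they share 627 exonic bases. In this overlap 9.49% of Muc20 windows and 1.26% of Muc4 windows match the other gene. The libraries were stranded, but whether the counting used strand is not given in the sources used here, so reads from the overlap may be counted for either gene. Muc13, on chromosome 16 from 33794037 to 33819934, overlaps the antisense gene Gm15657 (1.95% of windows), and Muc15, on chromosome 2 from 110721340 to 110739527, shares 61 exonic bases with Ano3 on the opposite strand. Muc6, Muc2 and Muc5b, on chromosome 7 from 141633456 to 141655319, from 141690340 to 141754693 and from 141839070 to 141873084, form the cluster of gel-forming mucins, and Muc1 stands alone on chromosome 3 from 89229057 to 89233381.

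Levels of different genes were compared as CPM per kilobase of exon. The median over the 8 tumors was 0.950 for Muc5b, which was above 54.7% of 21171 protein-coding genes. It was 0.0617 for Muc6, 0.0452 for Muc1 and 0.0327 for Muc4, the last above 33.8% of protein-coding genes. It was 0.00399 for Muc15, 0.00323 for Muc13, 0.00263 for Muc2 and 0.00157 for Muc20. The ranges over tumors overlapped between every pair of neighbours in this order, although Muc5b was above Muc6 in 7 of 8 tumors and Muc4 was above Muc15 in 8 of 8. Muc6, Muc1 and Muc4 could not be put in order, since Muc6 was above Muc1 in 5 tumors and Muc1 above Muc4 in 3. With the length of the longest transcript instead, the median of Muc2 was 0.00640, above 0.00417 for Muc15 and 0.00330 for Muc13.

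**Figure D2:**
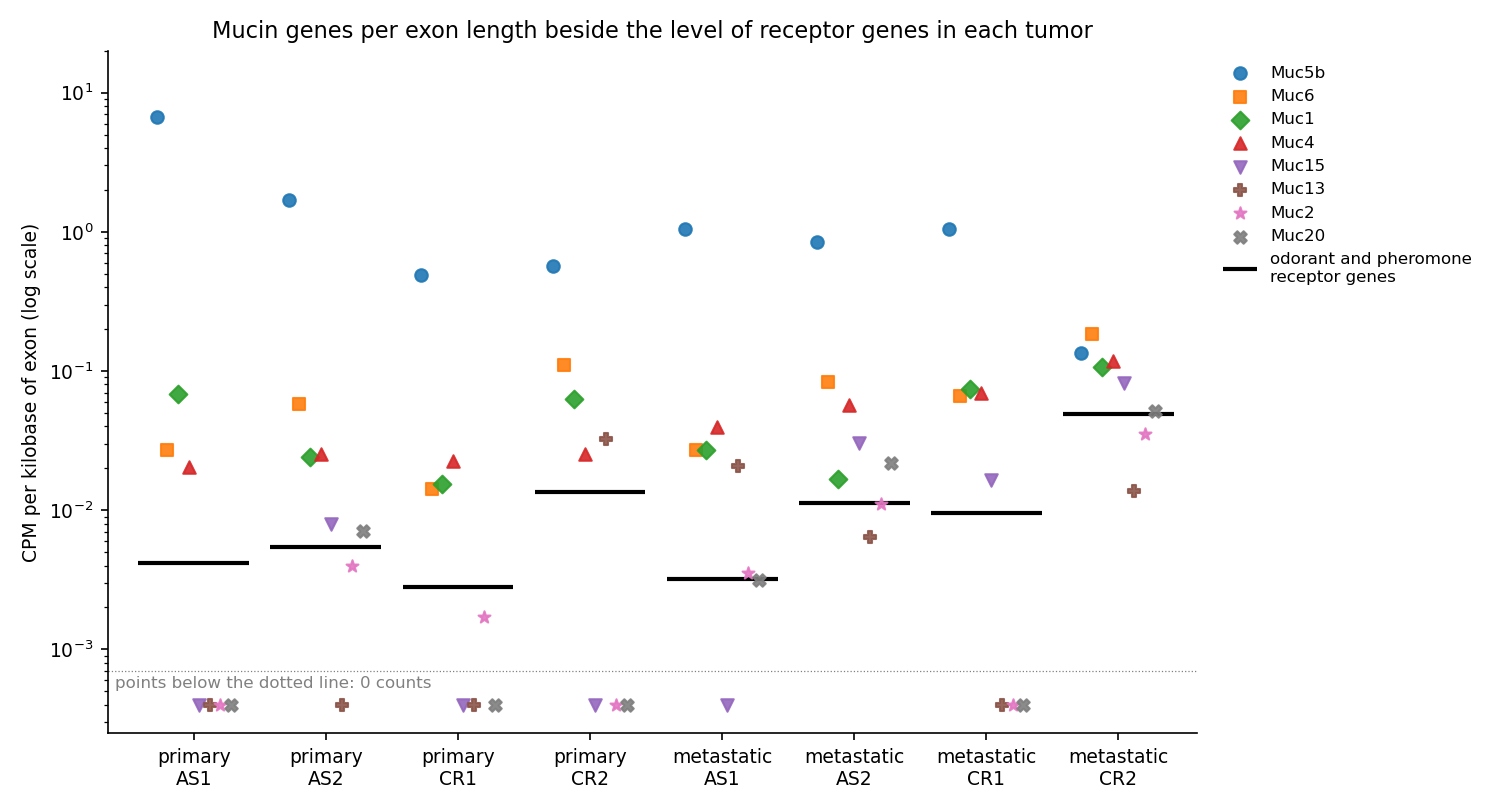
Level of each mucin (colored symbols) in each of the 8 tumors (x axis), in CPM per kilobase of exon on a log axis, with the pooled level of 1426 odorant and pheromone receptor genes in the same tumor as a black line. Muc5b stands above the other mucins in every tumor but metastatic CR2, where Muc6 is higher, while Muc15, Muc13, Muc2 and Muc20 are at 0 counts in 3 or 4 tumors each and elsewhere between 0.279 and 6.47 times the line.

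Odorant and pheromone receptors belong to sensory neurons, and their genes were pooled, after the data were seen, as a measure of the level at which genes of other tissues were counted. This level was 0.00280 to 0.0135 CPM per kilobase in primary tumors and 0.00322 to 0.0494 in metastatic tumors, with the highest value in metastatic CR2. The share of the 1426 receptor genes with a count was 69.4% in metastatic AS2 and 74.2% in metastatic CR2, against 10.4% to 29.9% in the other 6. Most counts of Muc2, Muc15 and Muc20 were in these 2 tumors as well, whereas 3 of the 10 counts of Muc13 were. Whether the low mucin counts share an origin with the receptor counts was not tested.

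Muc5b encodes the main gel-forming mucin of conducting airways and salivary glands. Its raw counts in the primary tumors were 6241 and 1763 for the AS pair and 605 and 171 for the CR pair. In the metastases they were 1241 and 1297 for the AS pair and 539 and 48 for the CR pair. Primary AS1 was the highest and metastatic CR2 the lowest, in raw counts that also carry the depth of each tumor. After normalization for depth, Muc5b had 5907 and 1491 normalized counts in the primary AS tumors and 435 and 503 in the primary CR tumors. In metastatic tumors it had 933 and 754 in AS and 935 and 119 in CR. The 2 primary AS tumors were above both primary CR tumors, whereas in metastases 1 CR tumor was level with the AS tumors.

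Muc5b supplied most of the reads counted on the 8 mucins. Its share of them was 99.3% in primary AS1 (95% Wilson interval 99.1% to 99.5%) and 96.2% in primary AS2 (95.3% to 97.0%). It was between 84.2% and 94.7% in 5 other tumors and was 32.7% in metastatic CR2 (25.6% to 40.6%). Intervals cover counting error only. The mucin total therefore followed Muc5b in all tumors but metastatic CR2, in which Muc5b was 2.72 times the receptor level, the lowest ratio of the 8 tumors, against 1601 times in primary AS1.

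Muc6, the gel-forming mucin of gastric and duodenal glands, was counted at a low level in every tumor. Its raw counts were 16, 38, 11 and 21 in primary AS1, AS2, CR1 and CR2, and 20, 79, 21 and 41 in the metastases in the same order. In normalized counts it ranged from 7.91 in primary CR1 to 102 in metastatic CR2, and the metastatic range of 15.0 to 102 covered most of the primary range of 7.91 to 61.7. Muc6 was 3.71 to 10.7 times the receptor level, with the lowest ratio in metastatic CR2. Muc2, the main mucin of intestinal mucus, had at most 2 counts in 6 tumors, of which 3 had 0, and it had 8 in metastatic AS2 and 6 in metastatic CR2. In these 2 tumors Muc2 was 0.975 and 0.713 times the receptor level when all its exons were taken as its length. By the length of its longest transcript it was 0.0268 and 0.0858 CPM per kilobase. The receptor levels of 0.0113 and 0.0494 were computed with all exons only, so these 2 values cannot be set against them. The symbol MUC2 in capitals stands at 2 further identifiers, which the choice by symbol does not cover.

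Among the membrane mucins, Muc4, which has domains like epidermal growth factor and binds the receptor ErbB2, had the counts on which it was selected. Raw counts were 15 and 21 for the primary AS pair and 22 and 6 for the primary CR pair. They were 37 and 68 for the metastatic AS pair and 28 and 33 for the metastatic CR pair. Every metastasis held more Muc4 reads than any primary tumor, metastatic CR2 included, whose total count was the lowest of the 8. Normalized, Muc4 lay between 14.2 and 17.8 in the 4 primary tumors, and it was 27.8, 39.5, 48.6 and 82.0 in metastatic AS1, AS2, CR1 and CR2. All 4 metastatic tumors were thus above all 4 primary tumors, and the metastases also differed more among themselves.

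**Figure D3:**
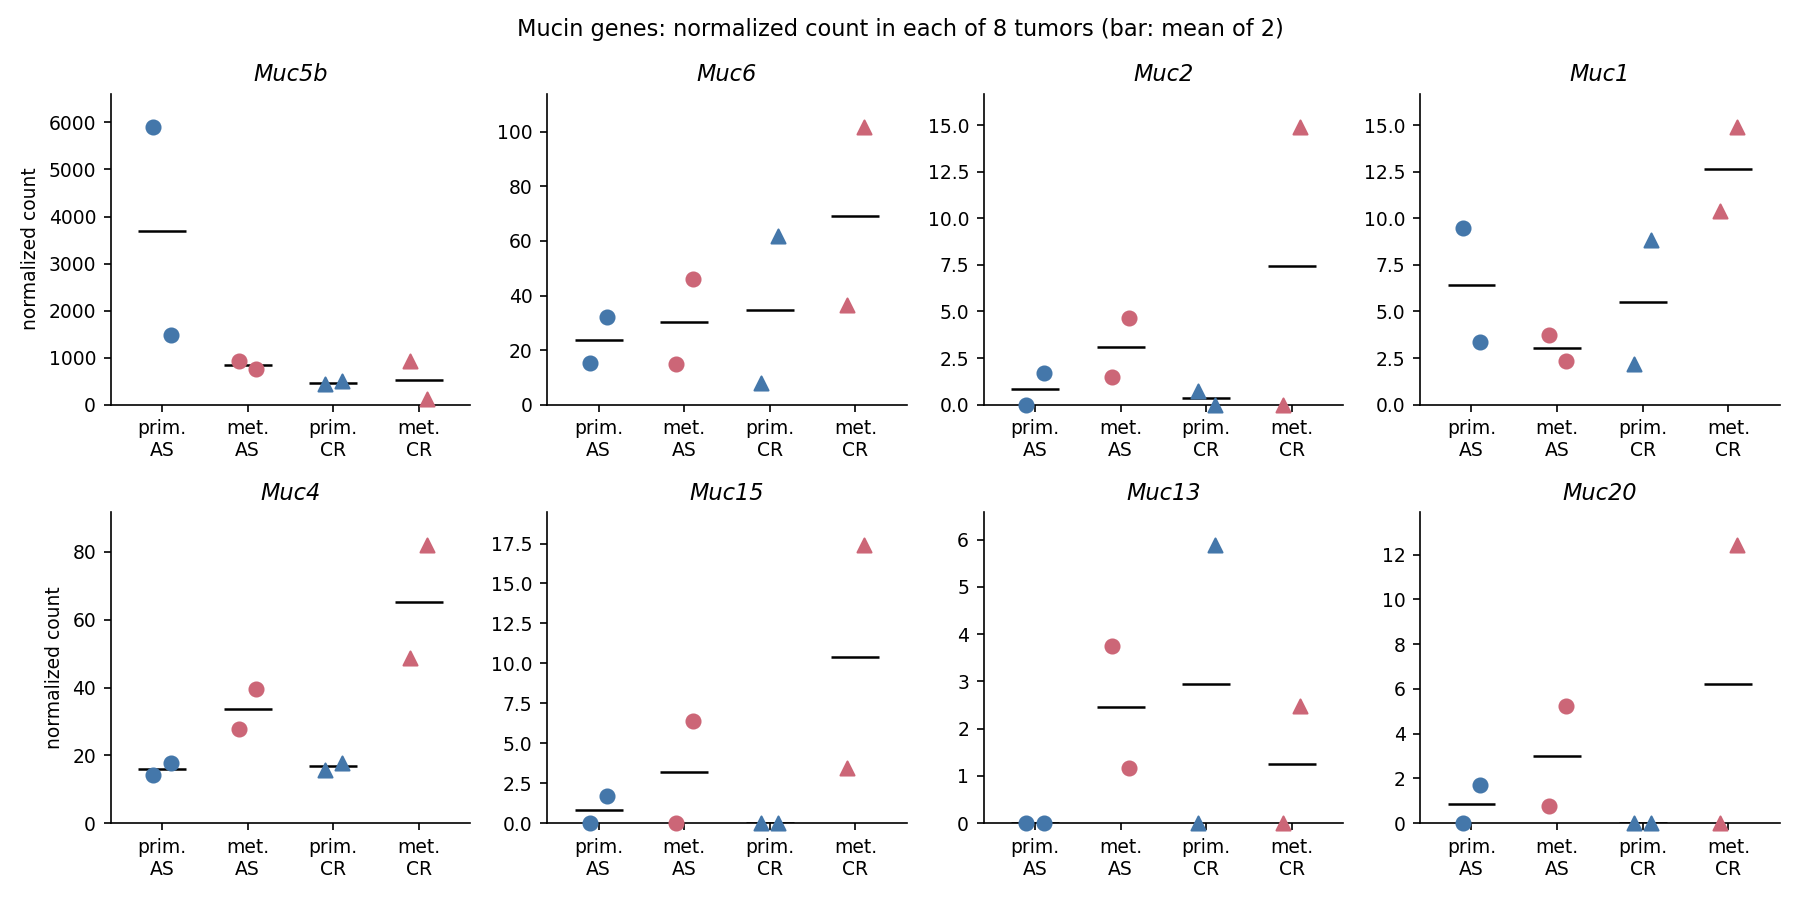
Normalized count (y axis, scale differs by panel) of each mucin in primary (blue) and metastatic (red) tumors, AS (circles) and CR (triangles), with a bar at the mean of each pair. Muc4 lies at 14.2 to 17.8 in primary and 27.8 to 82.0 in metastatic tumors, and Muc5b is highest in primary AS1 at 5907.

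The position of Muc4 above the receptor level was less even between the groups. Muc4 was 4.90, 4.69, 8.11 and 1.87 times that level in primary AS1, AS2, CR1 and CR2, and 12.4, 5.02, 7.29 and 2.38 times in the metastases, so on this ratio the groups overlap. With the receptor level subtracted, Muc4 was 0.0118 to 0.0200 CPM per kilobase in primary tumors and 0.0366 to 0.0681 in metastatic tumors, and the groups do not overlap. The 2 ways of setting Muc4 against the receptor level differ in this point, and the part of that level in the counts of Muc4 was not tested.

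Muc1, a mucin of nearly all glandular epithelia, had 3 to 10 raw counts per tumor. It had between 2.16 and 14.9 normalized counts, with its highest values in metastatic CR2 and CR1, from 6 raw counts each. The most raw counts, 10, were in primary AS1. Muc1 was 1.48 to 16.4 times the receptor level, highest in primary AS1 and 2.17 times in metastatic CR2. Muc15 had 0 counts in 4 tumors and 2 in each of another pair, with 11 in metastatic AS2 and 7 in metastatic CR2. Muc20, which binds the receptor Met, had 0 counts in 4 tumors, 1 or 2 in another pair, 9 in metastatic AS2 and 5 in metastatic CR2. Muc15 and Muc20, like Muc2, thus had most of their counts in the 2 tumors where most receptor genes had one. Muc13, a mucin of the large intestine, had 0 counts in 4 tumors and its highest count, 5, in metastatic AS1, where it was 6.47 times the receptor level. A count of 0 allows up to 3 counts, which corresponded to between 0.0294 CPM in metastatic AS2 and 0.149 CPM in primary CR2.

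Metastatic and primary tumors were set against each other in edgeR's quasi-likelihood test over the 17104 genes that passed its filter on low counts, among them Muc4, Muc5b and Muc6. The test called 0 genes with Benjamini-Hochberg adjustment at 0.05 (0% of those tested). At an unadjusted p-value under 0.05 it had 459 genes, and DESeq2 called 0 genes and had 611. The other 5 mucins, Muc1, Muc2, Muc13, Muc15 and Muc20, fell below the filter. The values of the 3 that passed come from the contrast that chose Muc4 and are given without a test.

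Muc4 had 16.4 ± 1.69 normalized counts in primary and 49.5 ± 23.3 in metastatic tumors (SD, n = 4 each), a log2 difference of 1.57 (SE 0.42) or 2.98-fold. Of the 17104 genes, 0.854% were, like Muc4, higher in all 4 metastatic tumors than in any primary tumor, and since Muc4 was chosen by this contrast nothing is read from that. The log2 difference was 1.09 among AS tumors and 2.0 among CR tumors. Leaving out 1 tumor at a time gave 1.23 to 1.77, and without metastatic AS2 and CR2 it was 1.21. These values come from the tumors on which Muc4 was chosen, so they are no separate support for its difference.

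Muc5b had 2084 ± 2594 normalized counts in primary and 685 ± 387 in metastatic tumors (SD, n = 4 each), with a log2 difference of -1.60 (SE 0.88). This value rested on primary AS1, without which it was -0.24. Among AS tumors the log2 difference was -2.11 and among CR tumors it was 0.19. Muc6 had 29.2 ± 23.9 and 49.8 ± 37.0 normalized counts, with a log2 difference of 0.81 (SE 0.73), which was -0.14 without metastatic AS2 and CR2. The sign of Muc4 was set by its choice, and that of Muc5b differed between AS and CR tumors. For Muc6 the sign depended on the 2 tumors that stood apart. These values therefore cannot show whether the 3 mucins that could be fitted share a direction.

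**Figure D4:**
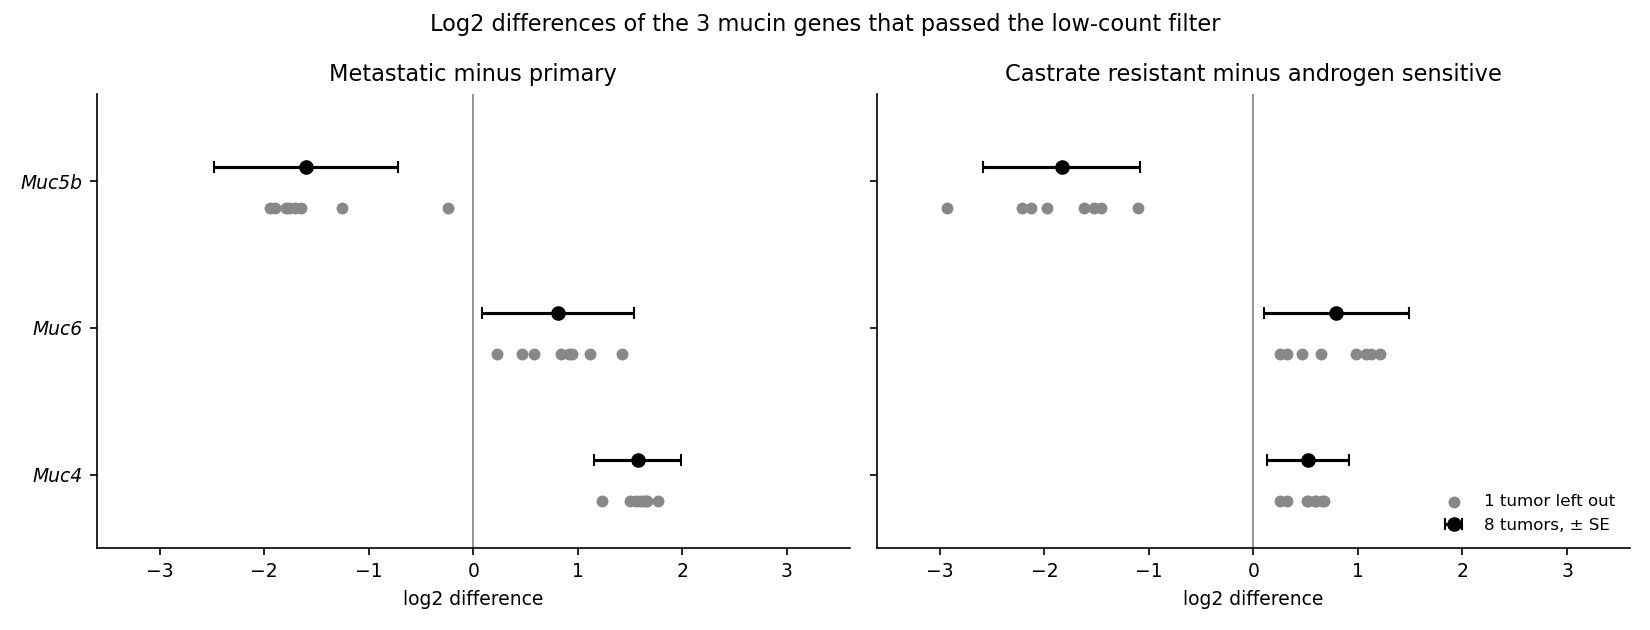
Log2 difference (x axis) of Muc5b, Muc6 and Muc4 between metastatic and primary tumors (left) and between castrate resistant and androgen sensitive tumors (right), as the value over 8 tumors with its SE (black) and the values with each tumor left out (grey). Muc4, chosen by the comparison on the left, lies between 1.23 and 1.77 there with 1 tumor left out, and Muc5b moves from -1.60 to -0.24 without primary AS1.

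The comparison of CR with AS tumors asks whether the phenotypes differed in mucin counts, with tumor type as a covariate. Of 17797 genes tested, 2026 (11.4%) had an adjusted p-value under 0.05, 1008 (5.66%) higher and 1018 (5.72%) lower in CR tumors (edgeR's quasi-likelihood test, Benjamini-Hochberg adjusted). Of the 3 mucins in this fit, Muc4, Muc5b and Muc6, 0 were called, by DESeq2 as well. Unadjusted, 5015 of the genes and 1 of the 3 mucins, Muc5b, had a p-value under 0.05. With 1 tumor type at a time, so that no metastasis stood beside its primary tumor, 4 genes were called within primary and 974 within metastatic tumors, and 0 of the 3 mucins in either.

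Muc5b had 2271 ± 2444 normalized counts in AS and 498 ± 336 in CR tumors (SD, n = 4 each), and the groups overlapped, with AS tumors from 754 to 5907 and CR tumors from 119 to 935. Its log2 difference was -1.83 (SE 0.75, unadjusted 95% interval -3.53 to -0.14), which is 3.56-fold lower in CR tumors, with an adjusted p of 0.149 (edgeR's quasi-likelihood test, Benjamini-Hochberg). Over the alternatives the adjusted p lay between 1.4e-11 and 0.649. It was 0.0227 without metastatic CR1, the CR tumor with the most Muc5b, where the log2 difference was -2.93, and 0.271 without primary AS1, where the log2 difference was -1.11. The log2 difference was -2.98 within primary tumors (adjusted p = 0.286) and -0.66 within metastatic tumors (adjusted p = 0.649), each by the same edgeR test. Without metastatic AS2 and CR2 the log2 difference was -2.06 for Muc5b, 0.32 for Muc4 and 0.69 for Muc6.

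Muc4 had 24.8 ± 11.4 normalized counts in AS and 41.0 ± 31.2 in CR tumors (SD, n = 4 each), a log2 difference of 0.52 (SE 0.39, interval -0.36 to 1.40, adjusted p = 0.411 by edgeR's quasi-likelihood test). Muc6 had 27.1 ± 14.9 and 52.0 ± 39.8, a log2 difference of 0.79 (SE 0.69, interval -0.78 to 2.36, adjusted p = 0.491 by the same test). Both intervals reach past 2-fold, so these tumors could not show whether a difference of that size exists. The 5 mucins outside the fit were compared by an exact two-sided permutation test of normalized counts, whose smallest possible p is 0.0286. It gave p = 0.314 for Muc1, 0.714 for Muc13, 0.714 for Muc15, 0.971 for Muc2 and 1.0 for Muc20, and 1.0 for each after Benjamini-Hochberg adjustment over these 5 exact tests.

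Whether the difference between metastases and primary tumors itself differed between the phenotypes was tested as an interaction over 18889 genes. It called 0 genes (0%) by edgeR's quasi-likelihood test, against 517 at an unadjusted p-value under 0.05 and 2 called by DESeq2. Muc1, with 3 to 10 raw counts per tumor, also entered this fit, although it fell below the filters of the other fits. The filter asks for enough counts in only some tumors, so Muc1 can enter through those where it is high. Its interaction of 2.46 on the log2 scale (SE 1.56) is therefore given as a description. The interaction of Muc5b was 2.31 on the log2 scale (SE 1.22). For Muc4 it was 0.86 (SE 0.77) and for Muc6 it was 0.73 (SE 1.42). Adjusted p-values were 0.964 for Muc4 and Muc5b and 0.976 for Muc6 by the same edgeR test, so the opposite signs of Muc5b in AS and CR tumors were not shown to differ.

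Genes that act with mucins were described by lists. Of 9 other mucin-like genes tested between the phenotypes, 1 was higher and 0 were lower in CR tumors, with a list median of 0.42 on the log2 scale against -0.0072 over all genes tested. The gene called was Ovgp1, an oviductal glycoprotein with a mucin-like region, which rose in CR tumors with a log2 difference of 1.46 (adjusted p = 0.0204 by edgeR's quasi-likelihood test). Muc3, a membrane mucin of the intestine, had 6 to 76 raw counts and a log2 difference of 2.02 (adjusted p = 0.0641 by the same test). It was 0.921 CPM in primary CR1 and 0.965 CPM in metastatic CR1. In primary CR2 and metastatic CR2 it was 0.297 and 0.251 CPM, beside 0.0855 to 0.271 CPM in AS tumors. The airway mucin Muc5ac had 1 to 24 raw counts and Muc16 0 to 8. The sialomucins of blood and vessel cells, Cd164 and Podxl, were far more abundant, at 130 to 259 and 86.8 to 222 CPM.

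Of 23 tested genes of mucin O-glycosylation, 2 were higher and 3 were lower in CR tumors, with a list median of 0.054 on the log2 scale. Galnt2 and Galnt10, enzymes that attach the first sugar to serine or threonine, fell by 1.19 and 1.16 on the log2 scale (adjusted p = 0.00994 and 0.0218 by edgeR's quasi-likelihood test). C1galt1, which extends that sugar to the core 1 structure, fell by 0.61 (adjusted p = 0.0244 by the same test). St6galnac3, a sialyltransferase, rose with a log2 difference of 1.73 (adjusted p = 0.0262 by the same test). Galnt2 was between 67.6 and 93.5 CPM in AS tumors and between 27.7 and 47.2 CPM in CR tumors, and St6galnac3 was under 2 CPM in every tumor.

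Of 20 genes of the mucus secretory cell, 8 could be tested and 1, Capn8, a calpain of gastric mucous cells, fell in CR tumors by 1.87 on the log2 scale (adjusted p = 0.0379 by edgeR's quasi-likelihood test), and the list median was -0.16. Tff3, the trefoil factor of goblet cells, had 0 counts in all 8 tumors. Agr2, which folds gel-forming mucins, and Spdef, a transcription factor of goblet cells, were at most 0.126 and 0.0495 CPM. Other genes of the list were counted in every tumor. Clca1, a secreted goblet cell protein, was 2.40 to 4.88 CPM, Pigr, the receptor that carries immunoglobulin A across epithelia, was 0.606 to 14.7 CPM, and Klf4, a zinc finger factor of epithelia, was 3.51 to 8.92 CPM. Capn8 was 0.495 to 6.36 CPM. The summed level of the list was 17.2 to 31.4 CPM in AS and 14.0 to 26.3 CPM in CR tumors, and in primary AS1, where Muc5b was 99.6 CPM, Clca1 was 4.88 and Fcgbp 1.26 CPM. The part of such cells in the values of Muc5b was not tested.

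Of 16 genes of proteins that bind or signal with membrane mucins, 0 were higher and 1 was lower in CR tumors, with a list median of -0.092. This was Erbb2, the receptor bound by Muc4, which fell by 0.92 on the log2 scale (adjusted p = 0.011 by edgeR's quasi-likelihood test) from 40.1 to 66.3 CPM in AS tumors to 17.8 to 36.4 CPM in CR tumors. Of 17 tested genes of factors known to act on mucin genes, 2 were higher and 1 was lower, with a list median of -0.049. Ehf, an epithelial transcription factor of the Ets family, fell 15.4-fold, from 99.8 to 150 CPM in AS tumors to 3.12 to 16.6 CPM in CR tumors (log2 difference -3.95, adjusted p = 0.00432 by the same test). Klf5, a zinc finger factor of epithelia, and Hif1a, the hypoxia factor, rose with log2 differences of 1.93 and 0.87 (adjusted p = 0.0146 and 0.0134 by the same test). The share called in each of these lists is to be read against the 11.4% called over all genes. Between metastatic and primary tumors the same test called 0 genes in each of the 5 lists.

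Some markers of other cell types differed between the phenotypes, while Muc5b was not called in the main fit, and their part in its values was not tested. The share called in each marker list is likewise to be read against the 11.4% called over all genes. Of 10 genes of prostate and seminal vesicle secretions, 2 could be tested, and Msmb, a secreted protein of the prostate, fell by 6.12 on the log2 scale in CR tumors (adjusted p = 0.0254 by edgeR's quasi-likelihood test). Msmb was highest in primary AS1, at 6.70 CPM, as Muc5b was, and the summed list was 4.34 to 15.4 CPM in AS and 4.27 to 6.18 CPM in CR tumors. Of 10 lung epithelial genes, 5 were tested and 2, Foxj1 and Hopx, were lower in CR tumors, with sums of 67.1 to 115 CPM in AS and 12.3 to 35.7 CPM in CR tumors. Sftpd went the other way, with a log2 difference of 1.47, and was not called. The surfactant genes Sftpc and Sftpb and the club cell gene Scgb1a1 were at most 0.0991 CPM in every tumor, and Scgb3a2 had 0 counts. Scgb3a1, a secretory gene of the airways, was 0.628 to 8.75 CPM, highest in primary AS2, and the surfactant gene Sftpd was up to 2.01 CPM, in metastatic CR2. Foxj1, the factor of ciliated cells, was 9.65 to 28.7 CPM in AS and 0.149 to 0.921 CPM in CR tumors.

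Of 8 liver genes, 5 were tested and Fgb and Ttr were lower in CR tumors. Alb and Apob went the other way, with log2 differences of 1.36 and 0.96, and were not called. The sum of the list was 3714 to 10087 CPM in AS and 95.3 to 1975 CPM in CR tumors, nearly all of it from Fgb, while Alb, the albumin gene, was at most 3.18 CPM. Among 5 basal epithelial genes 3 were tested and Trp63 was lower, with sums of 92.5 to 412 CPM in AS and 17.7 to 433 CPM in CR tumors. Among 6 intestinal genes 3 were tested and Krt20 was higher, with sums of 1.8 to 2.64 CPM in AS and 3.91 to 5.34 CPM in CR tumors. Krt8 was higher and Msmb lower among 7 tested prostate epithelial genes. In the lists of lymphocytes, macrophages, fibroblasts, mesothelium, urothelium, endothelium and proliferation, the same test called 0 genes between the phenotypes.

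In the metastatic comparison the proliferation list had 7 of 7 genes above 0 and a median log2 difference of 1.18 against -0.029 over all genes. Of the 7, 0 were called by edgeR's quasi-likelihood test. The summed level of this list was 75.8 to 295 CPM in primary and 202 to 370 CPM in metastatic tumors. The study had reported Top2a, a member of the list, as higher in metastatic tumors from these data. Muc4 and the list were thus chosen with this contrast known, and nothing is read from their common direction. The mesothelium list had 4 of 5 genes above 0 and a median of 1.30, with sums of 81.6 to 311 CPM in primary and 109.5 to 214 CPM in metastatic tumors. Endothelial genes were above 0 in 4 of 4, with a median of 0.47 and sums of 40.0 to 59.4 CPM in primary and 51.6 to 88.2 CPM in metastatic tumors, highest in metastatic AS2. Fibroblast and smooth muscle genes were above 0 in 0 of 7, with a median of -0.56 and sums of 31.9 to 71.5 CPM in primary and 32.8 to 53.6 CPM in metastatic tumors. Their part in the values of Muc4 was not tested.

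The genes whose pattern over the 8 tumors was most like that of a mucin were found by Pearson's correlation of log2(CPM + 1) over 17103 genes, as a description. Nearest to Muc4 were Clvs2 (0.987), a clavesin of neurons, and the noncoding genes AC148981.1 (0.974) and Gm11934 (0.969), which had 2 to 34 raw counts per tumor and so share its low depth. Nearest to Muc5b were Prdm15 (0.988), a zinc finger factor, the pseudogene Gm10443 (0.985) and Herc2 (0.984), a ubiquitin ligase, all counted at over 60 in every tumor. Between the mucins themselves the correlation was -0.62 for Muc4 with Muc5b, 0.72 for Muc4 with Muc6 and -0.62 for Muc5b with Muc6. All these values rest on the same 8 libraries and share their depths.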

How the data were processed

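The authors depleted ribosomal RNA, made stranded libraries and sequenced paired reads of 101 bases. According to the study's methods, reads were mapped to mm10 with Bowtie and those matching a single location were counted per gene, whereas the submitters' processing notes name TopHat2 2.0, CASAVA 1.8.2 and GRCm38. The counting tool, the annotation and the strand setting are not given in the sources used here. The deposited values are raw counts per gene, with no normalization by the authors, and 0 entries lack a gene name. The study gives 3 primary tumors without naming them, so all 4 primary libraries were used.

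The analysis used edgeR 4.0.16 in R 4.3.3 (filterByExpr with a minimum count of 10, TMM factors between 0.811 and 1.15, quasi-likelihood test) and Benjamini-Hochberg adjustment at 0.05. DESeq2 1.42.0 was an alternative. Normalized counts are raw counts over the tumor's effective library, multiplied by the mean effective library. CPM uses the same effective libraries, and lengths and coordinates are from GENCODE M21 (GRCm38), in which 36343 of 38115 identifiers were found. The SE is the log2 difference divided by the square root of the F statistic. The fits were tested on simulated data. The members and lists were chosen with earlier results of these data known. Named were the 8 mucins, for Muc4 and the mucin with the highest median per kilobase the 3 genes most like it, and up to 4 genes of each list with the smallest p. Which metastasis matches which primary tumor is not given, so 4 possible pairings within phenotype were tried as a block. Other alternatives were normalization, filters, covariates, subsets and leaving out each tumor. Values of some marker genes are not reported here. Figures were drawn with matplotlib 3.10.9.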

Additional observations from a re-analysis of the deposited data

Results flagged for a closer look

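In 32 groups of 4 tumors examined, 8 mucins in primary, metastatic, AS and CR tumors, 6 had a tumor whose gap to its nearest neighbour took a larger share of the group's range than Dixon's critical value for 4 values allows. For normally distributed values, chance sets apart about 1 tumor in 20 such groups, and the groups overlap in their tumors. Muc5b in primary AS1 was set apart among AS tumors, at 5907 normalized counts. The other 5 come from genes with few counts, where 1 tumor is above others at or near 0, so that rate does not hold for them. Among primary tumors these were Muc13 in CR2 with 5.88 normalized counts, Muc15 in AS2 with 1.69 and Muc20 in AS2 with 1.69, each from 2 raw counts against 0 in the other 3 tumors. Among CR tumors, metastatic CR2 was set apart for Muc20 with 12.4 and for Muc2 with 14.9 normalized counts, from 5 and 6 raw counts.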

How the results depend on the processing

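The number of genes called between metastatic and primary tumors was 0 in each of the alternatives run. Between CR and AS tumors, 2026 genes were called, and every tumor left out moved this number by over 1.5 times, to between 433 without metastatic AS1 and 3994 without primary CR1 (821 and 603 without primary AS1 and AS2, 951 without primary CR2, 486 without metastatic AS2, 662 and 1099 without metastatic CR1 and CR2). It was 3563 with DESeq2, 3098 with every gene of at least 1 count, 4 within primary tumors, 974 within metastatic tumors and 237 without metastatic AS2 and CR2, an alternative chosen after seeing the data. The interaction called 0 genes, but 2 with DESeq2, 217 with every gene of at least 1 count, and 0 to 82 with 1 tumor left out, the most without primary CR2. For single mucins, the metastatic difference changed sign in CR tumors only for Muc5b (0.19) and without metastatic AS2 and CR2 for Muc6 (-0.14). With the 4 possible pairings as a block, that of Muc4, which was chosen by this contrast, was 1.45, 1.45, 1.48 and 1.48, and 0 genes were called. The block could not be fitted for the phenotypes, in which each pair is nested. Muc5b was called between phenotypes without metastatic CR1 (-2.93, adjusted p = 0.0227 by edgeR's quasi-likelihood test) and with every gene of at least 1 count (-1.90, adjusted p = 1.4e-11), where the prior degrees of freedom became infinite, so that each gene's own spread no longer counted. With a minimum of 3 counts taken as the floor, Muc2, Muc13, Muc15 and Muc20 were at or below it in 6 or more of 8 tumors, which limits what depth can show for them.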
